A study of Mus musculus with 9 samples.

Results

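The alternative end joining factors examined here were 9 genes, Polq, Parp1, Parp2, Lig1, Lig3, Xrcc1, Rbbp8, Fen1 and Rad50. They were found by gene symbol among the 45361 genes of the deposited count table. All 9 were present and all 9 passed the filter on low counts, which kept 12580 genes. RNA was sequenced from CH12F3, a mouse B-lymphoma line that switches its immunoglobulin class in culture. Every library, control or treated, came from a Ligase4 knockout of this line that had received anti-CD40, IL-4 and TGF-β, a stimulus for class switching, for 24 h. The 3 groups of 3 libraries differed in a further addition. It was DMSO, the solvent control, or tazemetostat, which inhibits the histone H3K27 methyltransferase EZH2, or valemetostat, which inhibits EZH1 as well as EZH2. The sources used here give neither inhibitor doses nor length of treatment, and do not say whether the knockout line is a single clone. The labels do not say that libraries of a group came from separate cultures, so p-values rest on the spread between libraries only, and that spread may be technical.

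Ligase 4 seals double-strand breaks in classical end joining, and cells without it join breaks by alternative routes. In alternative end joining the break ends are cut back to expose short matching stretches, the ends are held together and annealed, flaps are trimmed, gaps are filled and a ligase other than ligase 4 closes the strand. In switching B cells these routes can join immunoglobulin switch regions and can also produce chromosome translocations.

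Polq, Xrcc1 and Parp1 were lower than with DMSO under both inhibitors, as was Rad50, whose tazemetostat call was lost when any of 3 single libraries was left out, and none of the 9 genes was higher under either. Polq, which encodes DNA polymerase theta, fell the furthest of the 9, by 41.3% with tazemetostat and 40.2% with valemetostat. Fold changes in these libraries ran with transcript length. The Polq fall was smaller, though still called, with an offset for transcript length and GC content. Xrcc1, the scaffold of single-strand break repair, fell by 20.4% and 17.2%. Parp1, the break sensor that makes poly(ADP-ribose), fell by 9.61% with tazemetostat and fell by 10.03% with valemetostat. Lig3 and Rbbp8 passed the test against DMSO with valemetostat and not with tazemetostat, and those calls were lost when any of several single libraries was left out. Parp2, Lig1 and Fen1 did not pass the test with either compound.

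Windows before the RefSeq start sites of Polq, Xrcc1 and Parp1 are shown because these genes were lower together under both inhibitors and had such sites. RefSeq start sites on GRCm38.p6 were available for 7 of the 9 genes, with 10 windows in all, and not for Rbbp8 or Rad50. Each window is the 250 bases before the annotated start, written 5′ to 3′ on the strand of the gene. The windows lie at chr16:37011536-37011785 (+) for Polq, chr7:24546449-24546698 (+) for Xrcc1 and chr1:180568641-180568890 (+) for Parp1. Capitals mark motif matches on either strand, which do not overlap each other in these windows.
Polq: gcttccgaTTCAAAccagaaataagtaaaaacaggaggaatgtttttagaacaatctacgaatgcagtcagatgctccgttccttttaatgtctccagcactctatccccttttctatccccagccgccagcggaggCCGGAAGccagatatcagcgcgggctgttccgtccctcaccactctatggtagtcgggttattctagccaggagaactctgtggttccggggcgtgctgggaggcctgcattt
Xrcc1: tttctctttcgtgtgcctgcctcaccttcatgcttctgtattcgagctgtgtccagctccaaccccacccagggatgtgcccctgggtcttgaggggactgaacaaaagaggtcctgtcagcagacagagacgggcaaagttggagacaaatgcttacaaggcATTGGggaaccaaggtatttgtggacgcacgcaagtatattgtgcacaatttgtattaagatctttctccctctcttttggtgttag
Parp1: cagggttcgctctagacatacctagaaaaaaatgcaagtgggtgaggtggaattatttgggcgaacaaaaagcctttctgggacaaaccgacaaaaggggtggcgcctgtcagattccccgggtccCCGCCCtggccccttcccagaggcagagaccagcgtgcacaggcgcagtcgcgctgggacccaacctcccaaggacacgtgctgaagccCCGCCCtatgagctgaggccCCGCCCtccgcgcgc
The motifs searched were GGGCGG (GC box), CCAAT (bound by NF-Y), CCGGAAG (ETS factors), TTTNNCGC (E2F-like) and TTTGAA (cell cycle homology region). The Polq window held 1 match to CCGGAAG and 1 to TTTGAA, read on the opposite strand as TTCAAA. These letters occur in 6.91% and 16.0% of the 32851 windows of the RefSeq table. The Parp1 window held 3 matches to GGGCGG, which occurs in 32.7% of windows, and the Xrcc1 window held 1 match to CCAAT, which occurs in 33.8%. CpG pairs numbered 12 in the Polq window, 16 in the Parp1 window and 5 in the Xrcc1 window, against a median of 6 and quartiles of 2 and 16 over all windows. The 3 printed windows shared no motif of those searched. A match is a description of letters only, and whether these annotated starts are the ones used in CH12F3 was not tested.

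Library totals ran from 34080504 to 46675110 counts, and no pair of replicates agreed within counting noise (chi-square per degree of freedom of 5.28 to 13.7). Lig4, the gene knocked out, had 29 to 39 counts in DMSO libraries, 21 to 59 with tazemetostat and 31 to 46 with valemetostat. The sources used here do not say which exons were deleted, and these counts therefore check nothing. Neither drug target was called at the transcript level. Ezh2 stood at 0.03 ± 0.04 and -0.07 ± 0.04 and Ezh1 at -0.09 ± 0.09 and -0.08 ± 0.09 (log2 fold change ± SE with tazemetostat and valemetostat against DMSO). All 8 B cell markers were present, with summed levels of 3038 to 3327 CPM (counts per library total after TMM scaling) in DMSO, 3554 to 3573 with tazemetostat and 3619 to 3780 with valemetostat. The 5 T cell markers summed to 1.29 to 2.46 CPM over all libraries. The 5 myeloid markers summed to 27.5 to 33.7 CPM, mostly Csf1r, with Cd14 at 0 in every library. The 5 stromal and epithelial markers summed to 0.907 to 2.70 CPM, with Col1a2 at 0. The 2 erythroid markers found of 3 listed summed to 2.95 to 3.08 CPM in DMSO, 5.12 to 5.79 with tazemetostat and 5.13 to 5.49 with valemetostat. In bulk RNA, fewer cells with a transcript and less transcript per cell cannot be told apart.

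Per transcript length, Parp1 was the most abundant of the 9 genes and Polq the least. Levels between genes are given in TPM, which divides counts by transcript length and scales to a common total, from the deposited log2 values. With DMSO, Parp1 stood at 287 ± 20.3 TPM and Lig1, the replicative ligase, at 113 ± 6.62 TPM (SD, n = 3). Xrcc1 at 90.6 ± 5.32, Parp2 at 90.4 ± 1.27 and Fen1 at 82.5 ± 2.49 TPM came next. Xrcc1 spanned 84.4 to 93.8 TPM, which covers the Parp2 range of 89.1 to 91.7, so these neighbours did not differ beyond their spread. The Fen1 range of 79.65 to 84.37 ended just below the lowest Xrcc1 value of 84.42 and below all Parp2 values. Rad50 at 34.9 ± 1.71, Lig3 at 34.6 ± 0.375 and Rbbp8 at 30.1 ± 4.83 TPM formed a lower group whose library values overlapped. Polq, at 7.78 ± 0.81 TPM, was below every value of the other 8 genes. Over all libraries Parp1 lay at percentile 96.1 and Polq at percentile 29.6 of the tested genes by mean TPM.

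The order of the mid-level genes was not the same in each group. With tazemetostat Parp2 was at 74.8 ± 6.82, Fen1 at 73.2 ± 2.29 and Xrcc1 at 65.8 ± 1.03 TPM. With valemetostat Fen1 was at 76.7 ± 1.07, Parp2 at 74.6 ± 3.26 and Xrcc1 at 69.4 ± 2.98 TPM. Xrcc1 was therefore the lowest of the mid-level genes by mean with either inhibitor and the highest by mean with DMSO. The ratio of Parp1 to Parp2 on the TPM scale was 3.17 ± 0.206, 3.27 ± 0.239 and 3.23 ± 0.0866 with DMSO, tazemetostat and valemetostat, so it moved by less than its spread. The ratio of Lig1 to Lig3 was 3.27 ± 0.156, 3.57 ± 0.169 and 3.62 ± 0.0403 in the same order. Its valemetostat values (3.57 to 3.64) lay above its DMSO values (3.17 to 3.45), which the tazemetostat values (3.43 to 3.76) overlapped. That rise held on the TPM scale only. In the edgeR fit on counts Lig1 changed by -0.10 and Lig3 by -0.14 with valemetostat (log2 fold change). With the length and GC offset the changes were -0.11 for Lig1 and -0.06 for Lig3, the opposite order. Whether the balance of the ligases shifted is therefore not settled here. Parp1 exceeded Polq by 36.9 ± 1.31 times with DMSO, 56.7 ± 4.01 times with tazemetostat and 59.1 ± 0.225 times with valemetostat. These ratios were taken without the length and GC offset, with which the Polq falls were smaller.

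**Figure D1:**
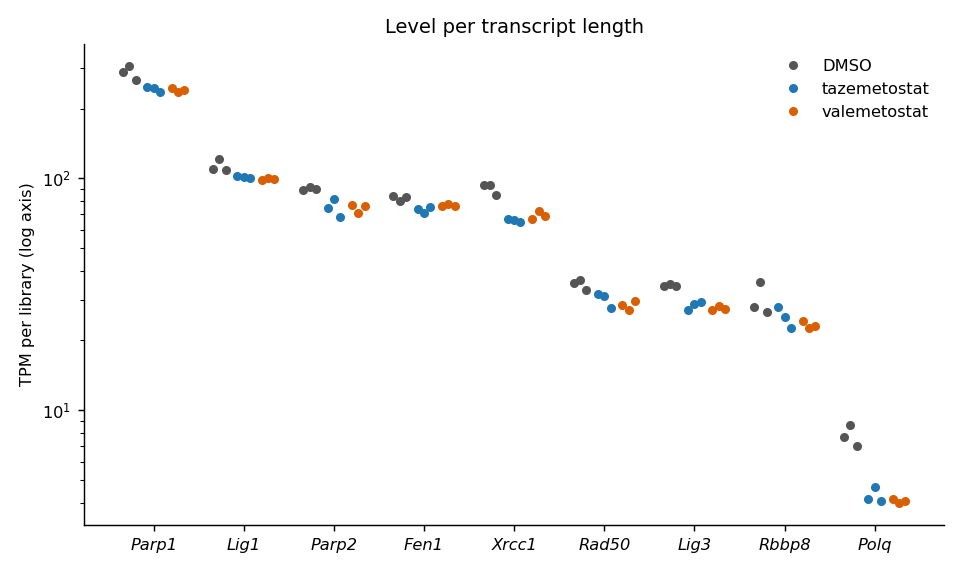
Level of each of the 9 genes per transcript length, in TPM on a log axis, with a point for each of 3 libraries in each group. Parp1 lies highest in every library and Polq lowest, and the 3 Polq values with DMSO (7.03 to 8.64 TPM) lie above the 6 with an inhibitor (3.98 to 4.69 TPM).

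Polq encodes the polymerase that anneals short matching stretches at resected ends and extends from them, the step that defines theta-mediated joining. Its CPM was 45.8, 48.6 and 44.6 in DMSO libraries 1, 2 and 3. It was 28.2, 30.1 and 23.1 in tazemetostat libraries 1, 2 and 3, and 28.2, 27.1 and 27.7 in valemetostat libraries 1, 2 and 3. All 6 inhibitor libraries were below all 3 DMSO libraries, and tazemetostat 3 was the lowest of the 9. The log2 fold change was -0.77 ± 0.08 (SE, 95% interval -0.93 to -0.61) with tazemetostat, with edgeR adjusted p = 1.76e-08. With valemetostat it was -0.74 ± 0.08 (95% interval -0.90 to -0.58), with edgeR adjusted p = 3.4e-08. Fold changes in these libraries ran with transcript length, and the longest annotated Polq transcript is 8628 nt. With an offset for transcript length and GC content the Polq levels were 42.9, 43.6 and 43.5 CPM with DMSO, 28.1, 29.7 and 25.03 with tazemetostat, and 29.1, 29.2 and 28.7 with valemetostat. The log2 fold changes were then -0.65 and -0.58, with edgeR adjusted p = 5.64e-09 and 4.69e-08.

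The sensing and scaffold genes share single-strand break repair with alternative end joining. PARP1 and PARP2 bind broken DNA and build poly(ADP-ribose) chains, and XRCC1 is recruited to those chains and carries ligase 3. Xrcc1 CPM was 129, 118 and 121 with DMSO, 98.5, 98.2 and 96.1 with tazemetostat, and 96.6, 107 and 102 with valemetostat. Every inhibitor library was below every DMSO library. The log2 fold change was -0.33 ± 0.05 (95% interval -0.43 to -0.23) with tazemetostat and -0.27 ± 0.05 (-0.38 to -0.17) with valemetostat, with edgeR adjusted p = 1.03e-05 and 0.000109. Xrcc1 has a short transcript of 2528 nt, and with the length and GC offset its changes were -0.33 and -0.29.

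Parp1 CPM was 809, 809 and 762 with DMSO, 722, 717 and 713 with tazemetostat, and 714, 712 and 715 with valemetostat. The groups did not overlap, and DMSO 3 was the lowest of the DMSO libraries. Its log2 fold changes were -0.15 ± 0.04 with each inhibitor, with edgeR adjusted p = 0.00583 and 0.00392. Leaving out DMSO 2 and valemetostat 2 together ended the valemetostat call (adjusted p = 0.0638). Parp2 CPM was 95.8, 93.2 and 97.1 with DMSO, 86.6, 89.9 and 88.9 with tazemetostat, and 91.4, 87.1 and 87.1 with valemetostat. The Parp2 libraries with an inhibitor were all below those with DMSO, but the log2 fold changes of -0.11 ± 0.05 and -0.11 ± 0.05 missed the threshold (edgeR adjusted p = 0.081 and 0.0859). With the length and GC offset the Parp2 changes were -0.18 and -0.19 and passed (edgeR adjusted p = 0.00124 and 0.00074).

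Rbbp8 encodes CtIP, which starts the cutting back of break ends, and RAD50 is the ATPase of the MRE11 complex that holds the ends and works with CtIP. Rad50 CPM was 134, 133 and 130 with DMSO, 124, 125 and 112 with tazemetostat, and 109, 110 and 115 with valemetostat. All inhibitor libraries were below all DMSO libraries. The log2 fold change with valemetostat was -0.25 ± 0.05 (95% interval -0.36 to -0.15), with edgeR adjusted p = 0.000186. With tazemetostat it was -0.14 ± 0.05 (-0.24 to -0.04), with edgeR adjusted p = 0.0255. That tazemetostat call was lost without tazemetostat 3 (-0.08, adjusted p = 0.216), without DMSO 1 (adjusted p = 0.0644) and without DMSO 2 (adjusted p = 0.0586). It was also lost in limma-trend on the TPM values (adjusted p = 0.0561).

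Rbbp8 had the largest standard error of the 9 genes. Its CPM was 42.1, 54.4 and 51.1 with DMSO, 48.8, 44.2 and 44.6 with tazemetostat, and 46.7, 36.3 and 41.0 with valemetostat. DMSO 1 lay below all 3 tazemetostat libraries and below valemetostat 1, so the groups overlapped in both comparisons. The log2 fold change with tazemetostat was -0.10 ± 0.09 and did not pass (edgeR adjusted p = 0.443). With valemetostat it was -0.25 ± 0.09 (95% interval -0.44 to -0.05), with edgeR adjusted p = 0.0461. It was no longer called without DMSO 2 (adjusted p = 0.195), DMSO 3 (0.155), valemetostat 2 (0.214) or valemetostat 3 (0.138), nor with the length and GC offset (0.0778). An unnamed antisense gene annotated as AC090479.2 overlaps Rbbp8 exons, and the sources used here do not say whether counting used strand.

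FEN1 removes flaps left when annealed ends or newly made strands are displaced. Fen1 CPM was 132, 119 and 132 with DMSO, 119, 114 and 126 with tazemetostat, and 123, 131 and 125 with valemetostat. The groups overlapped in both comparisons, since DMSO 2 lay below tazemetostat 3 and below all 3 valemetostat libraries. The log2 fold changes of -0.10 ± 0.05 and -0.02 ± 0.05 did not pass (edgeR adjusted p = 0.153 and 0.828). Without DMSO 2 the tazemetostat change was -0.15 and passed (adjusted p = 0.0468), and with the length and GC offset it was -0.13 and passed (adjusted p = 0.0138). Fen1 exons overlap those of Tmem258 on the opposite strand, a gene at 171 TPM with DMSO whose log2 fold changes of 0.03 and 0.18 did not pass the test.

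LIG3, carried by XRCC1, and LIG1, the ligase of replicating DNA, are the ligases left to close breaks when ligase 4 is absent. Lig3 CPM was 110, 118 and 109 with DMSO, 103, 104 and 108 with tazemetostat, and 103, 102 and 101 with valemetostat. The inhibitor libraries lay below the DMSO libraries, with tazemetostat 3 the closest to them. Lig3 changed by -0.14 ± 0.05 (95% interval -0.24 to -0.04) with valemetostat, with edgeR adjusted p = 0.0228. The call did not survive leaving out DMSO 2 (adjusted p = 0.148), valemetostat 2 (0.0696) or valemetostat 3 (0.0713), nor the length and GC offset, which brought the change to -0.06 (adjusted p = 0.316). With tazemetostat the Lig3 change of -0.10 ± 0.05 did not pass (edgeR adjusted p = 0.123), but it passed with library totals (-0.12, adjusted p = 0.0441) and on the TPM values (-0.28, limma-trend adjusted p = 0.00615). Rffl, whose exons overlap those of Lig3 on the opposite strand, was at 15.2 TPM with DMSO and changed by -0.39 and -0.45 (edgeR adjusted p = 6.41e-05 and 1.17e-05).

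Lig1 CPM was 239.1, 249 and 244 with DMSO, 231, 228 and 238.9 with tazemetostat, and 224, 234 and 225 with valemetostat. Tazemetostat 3 nearly reached DMSO 1, and no inhibitor library exceeded a DMSO library. Lig1 differed by -0.07 ± 0.04 with tazemetostat and -0.10 ± 0.04 with valemetostat and did not pass (edgeR adjusted p = 0.207 and 0.0597). The valemetostat difference passed in DESeq2 (adjusted p = 0.029), with library totals (0.0218), on TPM values (0.0205) and with the length and GC offset (0.0109). Zswim9, on the opposite strand over Lig1 exons, was at 2.43 TPM with DMSO and changed by -0.44 with valemetostat (edgeR adjusted p = 0.0289).

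**Figure D2:**
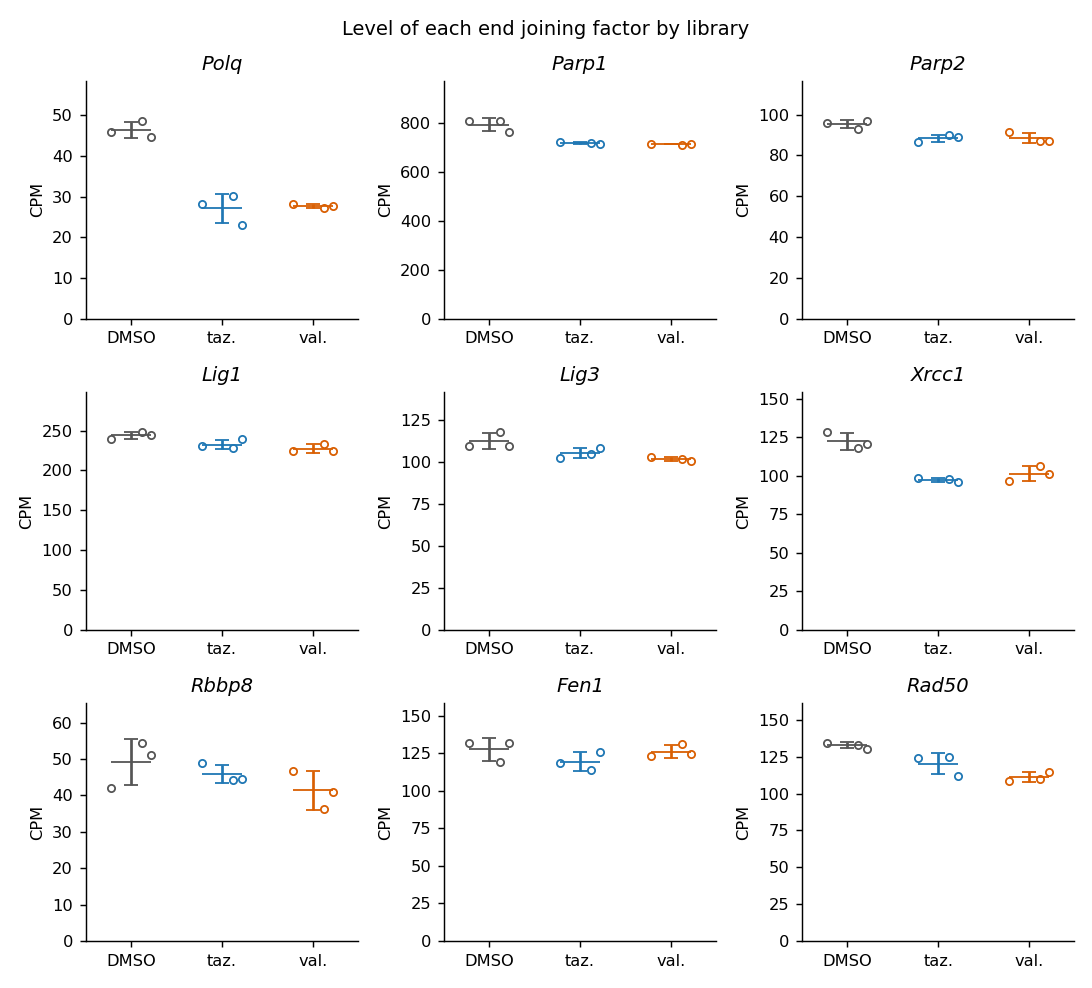
Level of each of the 9 genes in CPM on axes that start at 0, with an open circle per library and a bar for the group mean with its SD over 3 libraries. Polq and Xrcc1 show the widest gaps between DMSO and inhibitor libraries, while the Rbbp8 and Fen1 circles overlap between groups.

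In counts, 4 of the 9 genes were called lower with tazemetostat and 0 higher, at an adjusted p of 0.05 by edgeR. Over all tested genes 18.2% were called lower and 19.9% higher in that comparison. With valemetostat 6 of 9 were called lower and 0 higher, against 18.7% lower and 20.5% higher over all tested genes. All 9 log2 fold changes were negative with each inhibitor. Of the 12580 tested genes, 6271 had a negative change with tazemetostat and 6162 with valemetostat. The median over the 9 genes was -0.11 with tazemetostat and -0.15 with valemetostat, against 0.00 and 0.01 over all tested genes. The inhibitor libraries lay wholly below the DMSO libraries for 7 of 9 genes with tazemetostat, where 23.3% of all genes did so, and for 7 of 9 with valemetostat, where 23.7% did. Both comparisons use the same 3 DMSO libraries, so the second is not separate evidence of the first. In limma-trend on the TPM values 7 of 9 were called lower with tazemetostat and 8 of 9 with valemetostat, against 15.5% and 16.8% of all tested genes. The median of all genes lay at -0.07 in both of those comparisons.

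**Figure D3:**
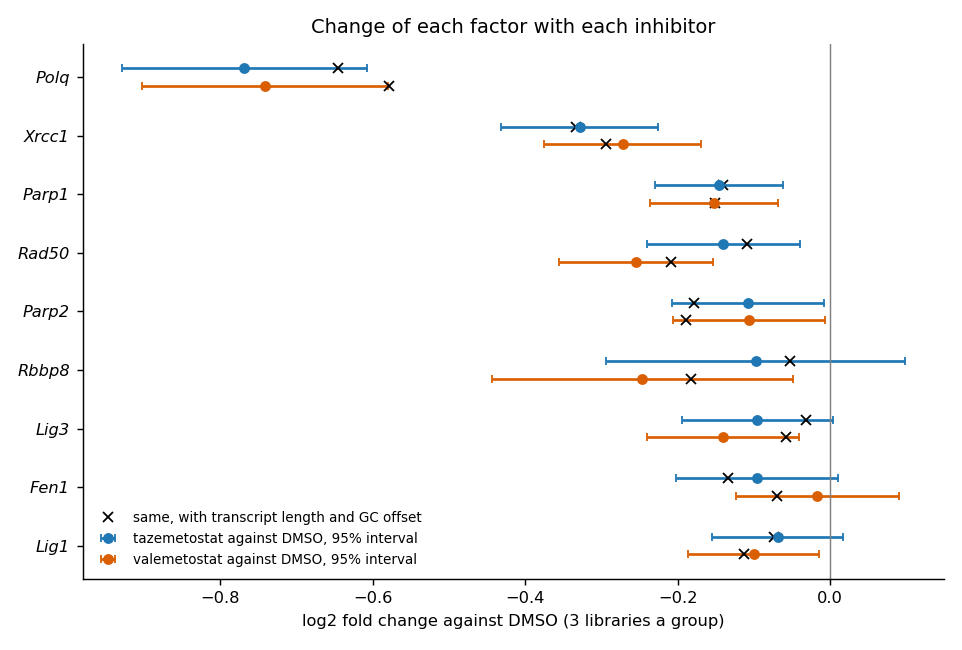
Log2 fold change of each gene against DMSO for tazemetostat and valemetostat, with the 95% interval from edgeR, and crosses for the same change with the transcript length and GC offset. Polq lies apart near -0.77 and -0.74, and the crosses for Lig3 lie nearer to 0 while those for Parp2 lie further from it.

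Set directly against each other, the compounds gave no called difference in any of the 9 genes. By edgeR 0 of 9 passed between valemetostat and tazemetostat, where 0.318% of all tested genes did, and DESeq2 and limma-trend also called 0 of 9. At an unadjusted p under 0.05 there was 1 of 9, Rad50, against 7.94% of all genes. The Rad50 difference was -0.11 ± 0.05 (95% interval -0.22 to -0.01, edgeR adjusted p = 0.549). The libraries of the compounds overlapped for all 9 genes, while 14.1% of all tested genes had no overlap. For Polq the difference was 0.03 (95% interval -0.14 to 0.19), a change of -9.09% to 14.2% relative to the tazemetostat level. For Xrcc1 the interval ran from -0.05 to 0.16, for Parp1 from -0.09 to 0.08, for Parp2 from -0.10 to 0.10 and for Fen1 from -0.03 to 0.19. For Lig1 it ran from -0.12 to 0.05, for Lig3 from -0.14 to 0.05 and for Rbbp8 from -0.35 to 0.05. An unpassed test does not show that the compounds act alike on these genes.

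Fold changes over all genes ran with transcript length, and so did the deviations of single libraries. Across 8983 genes of at least 3 log2 CPM, Spearman's rho between log2 fold change and the length of the longest annotated transcript was -0.34 with tazemetostat and -0.40 with valemetostat, a description over genes that share libraries. The same measure for each library's deviation from the mean of all 9 was 0.29, 0.48 and 0.21 in DMSO 1, 2 and 3. It was -0.03, -0.01 and -0.44 in tazemetostat 1, 2 and 3 and -0.25, -0.45 and -0.23 in valemetostat 1, 2 and 3. Polq belongs to the longest of 10 length classes, 899 genes of at least 6838 nt, whose median change was -0.17 and -0.22 and of which 50.9% and 58.1% were called lower. The Polq changes lay well below those medians. Xrcc1, Parp2 and Fen1 belong to a short class of 895 genes of 2041 to 2548 nt, with medians of 0.02 and 0.03 and with 13.3% and 9.94% called lower. Lig3 and Rbbp8, at 5957 and 5471 nt, belong to the class of 5350 to 6836 nt, whose median with tazemetostat was -0.11, close to their own changes of -0.10 each. With valemetostat the class median was -0.12, with Lig3 at -0.14 and Rbbp8 at -0.25. With the offset 6 of 9 genes were called lower with each inhibitor, against 19.2% of all tested genes with tazemetostat and 19.5% with valemetostat. They were Polq, Xrcc1, Parp1, Rad50 and Parp2 in both, Fen1 with tazemetostat and Lig1 with valemetostat. The medians over the 9 genes were then -0.13 and -0.18, against -0.02 over all tested genes in each. What produced the length relation was not tested.

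**Figure D4:**
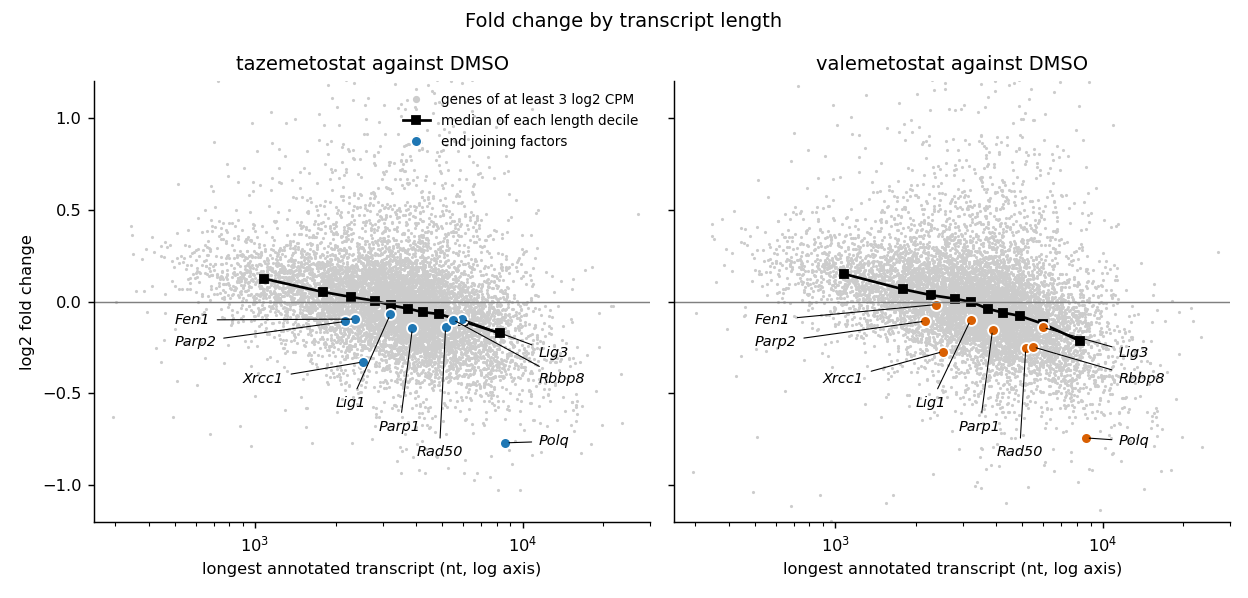
Log2 fold change against the length of the longest annotated transcript (nt, log axis) for 8983 genes, with black squares at the median of each of 10 length classes and coloured points for the 9 genes; 78 genes in each panel lie outside the axes. Polq lies below the median of the longest class, and Xrcc1 below the median of its short class, with both inhibitors.

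Across the 9 libraries the levels most like that of Polq were those of Btaf1, Herc1, Atm, Osgin2 and Bod1l. Their Pearson correlations of log2 CPM with Polq were 0.994, 0.992, 0.991, 0.990 and 0.989, the highest of 8989 genes compared. The points share libraries and depth and form separate DMSO and inhibitor groups, so the values are a description. The genes other than Osgin2 have long transcripts, from 7204 nt for Btaf1 to 15153 nt for Herc1, and Osgin2 has 3432 nt. Atm, the kinase that signals double-strand breaks, changed by -0.41 with each inhibitor. Among the other 8 end joining genes the correlation with Polq was 0.938 for Parp1, 0.909 for Xrcc1, 0.864 for Rad50 and 0.840 for Parp2. It was 0.744 for Lig3, 0.685 for Lig1, 0.503 for Rbbp8 and 0.194 for Fen1.

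Genes that work beside the 9 factors were counted in 6 further lists. The share of all tested genes called lower was 18.2% with tazemetostat and 18.7% with valemetostat, and the share called higher was 19.9% and 20.5%. Of 15 genes that resect or trim break ends, 3 were called lower and 0 higher with tazemetostat, and 5 lower and 1 higher with valemetostat. Exo1, a long-range resection nuclease, changed by -0.24 and -0.19, and Wrn, a helicase with a nuclease domain, by -0.23 and -0.32. With valemetostat, Exo1 was no longer called once DMSO 2 (adjusted p = 0.0581) or valemetostat 3 (0.0538) was left out, or with the offset (0.461). The Exo1 change with tazemetostat was -0.13 with the offset (edgeR adjusted p = 0.0428). With tazemetostat, Wrn was no longer called once DMSO 2 (adjusted p = 0.0524) or tazemetostat 3 (0.0573) was left out. Slx4, a nuclease scaffold, changed by -0.21 and -0.27. Its tazemetostat call was lost without any of DMSO 1 (adjusted p = 0.144), DMSO 2 (0.11), tazemetostat 1 (0.144) or tazemetostat 3 (0.069). That call was also lost with the length and GC offset (-0.14, edgeR adjusted p = 0.138) and with a replicate block (0.0533). The Slx4 valemetostat call was lost without valemetostat 2 (adjusted p = 0.0622). Mus81, a structure-specific nuclease, changed by 0.32 with valemetostat in counts but by -0.41 on the TPM values (limma-trend adjusted p = 0.0272), a fit that differs in unit, scaling and test. Its valemetostat call was also lost without valemetostat 2 (adjusted p = 0.05). The median change of the list was -0.08 and -0.11.

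Of 15 tested partners of the PARP enzymes and of single-strand break repair, 1 was called lower and 1 higher with each inhibitor, and the median change was 0.00 and 0.03. Parg, which removes poly(ADP-ribose), went from 125 to 106 and 108 CPM (log2 fold change -0.24 and -0.21, edgeR adjusted p = 0.00039 and 0.00115). Chd1l, a remodeller that binds poly(ADP-ribose), changed by 0.17 with each. The Chd1l tazemetostat call was lost without DMSO 2 (adjusted p = 0.103), tazemetostat 1 (0.108) or tazemetostat 2 (0.0709), and the valemetostat call without DMSO 2 (0.0973) or valemetostat 3 (0.0718). On TPM values neither Parg nor Chd1l was called. Neil2, the other gene listed, had at most 1 count and was not tested.

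Of 10 tested genes of the checkpoint clamp and other partners of polymerase theta, 3 were called lower and 0 higher with each inhibitor, and the median was -0.08 and -0.09. Topbp1, the clamp-bound checkpoint activator, went from 257 to 217 and 210 CPM (log2 fold change -0.24 and -0.29, edgeR adjusted p = 0.000152 and 1.46e-05). Helq, a helicase related to the helicase part of polymerase theta, went from 20.002 to 14.5 and 14.8 CPM (-0.46 and -0.43, edgeR adjusted p = 0.000207 and 0.00046). Both kept their calls in every alternative run. Hus1, a clamp subunit, changed by -0.15 and -0.17. Its tazemetostat call was lost without DMSO 2 (adjusted p = 0.152), tazemetostat 2 (0.0843) or tazemetostat 3 (0.0926), and its valemetostat call without DMSO 2 (0.0989) or valemetostat 3 (0.0721). Hmces, the other gene listed, had at most 3 counts and was not tested.

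Of 16 replication partners of FEN1 and LIG1, 3 were called lower and 2 higher with tazemetostat, and 4 lower and 3 higher with valemetostat, with medians of 0.00 and -0.01. Pold4, the smallest subunit of polymerase delta, went from 27.8 to 45.9 and 48.2 CPM (log2 fold change 0.73 and 0.79). Pole, the catalytic subunit of polymerase epsilon, went from 153 to 115 and 106 CPM (-0.41 and -0.53). With the length and GC offset the Pole changes were -0.31 and -0.41. Rfc1, the large subunit of the clamp loader, changed by -0.27 and -0.30, and Pold3, another subunit of polymerase delta, by -0.21 with each. These 4 genes kept their calls in every alternative run. Pcna, the sliding clamp that binds both FEN1 and LIG1, changed by 0.16 and 0.12, which became 0.04 and -0.02 with the length and GC offset (edgeR adjusted p = 0.323 and 0.734). The Pcna valemetostat call was lost without DMSO 1 (adjusted p = 0.0568), DMSO 2 (0.079), valemetostat 1 (0.0746) or valemetostat 2 (0.0955). Rnaseh2c, a subunit of RNase H2, changed by 0.26 with valemetostat, a call lost without DMSO 2 (adjusted p = 0.072) and with the offset (adjusted p = 0.101).

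The routes that alternative end joining competes with were counted the same way. Of 10 tested classical end joining genes, 1 was called lower with tazemetostat and 2 with valemetostat, with 0 higher and medians of 0.03 and 0.02. Prkdc, the kinase that Ku brings to break ends, went from 66.0 to 45.3 and 38.9 CPM (log2 fold change -0.54 and -0.76, edgeR adjusted p = 2.54e-07 and 8.67e-10), with a transcript of 12647 nt. With the length and GC offset the Prkdc changes were -0.35 and -0.52. Dclre1c, which encodes the hairpin-opening nuclease Artemis, changed by -0.40 with valemetostat from 9.08 CPM, a call lost without DMSO 1 (adjusted p = 0.0689), DMSO 2 (0.176), valemetostat 2 (0.0565) or valemetostat 3 (0.139). The length and GC offset brought Dclre1c to -0.27 and also ended the call (adjusted p = 0.124).

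Of 17 tested homologous recombination genes, 7 were called lower and 1 higher with tazemetostat, and 8 lower and 1 higher with valemetostat, with medians of -0.12 and -0.16. Over all tested genes 18.2% and 18.7% were called lower. Called or not, 14 of the 17 had a negative change with tazemetostat and 13 with valemetostat. Brca2, a tumour suppressor of this pathway, went from 58.3 to 39.7 and 34.8 CPM, with log2 fold changes of -0.55 and -0.74, and its tazemetostat call was lost on TPM values (limma-trend adjusted p = 0.142). Brca1 went from 88.4 to 67.4 and 65.9 CPM (-0.39 and -0.42). With the length and GC offset the changes were -0.39 and -0.53 for Brca2 and -0.31 and -0.32 for Brca1. Rad54l, a motor protein of strand exchange, changed by -0.24 with tazemetostat, and Gen1, a junction resolvase, by -0.27 with valemetostat. Sfr1, an accessory factor of the pathway, changed by 0.26 and 0.17, and its valemetostat call was lost with the offset (0.05, edgeR adjusted p = 0.35). In limma-trend on the TPM values Wrn, Slx4, Hus1 and Pcna were not called with tazemetostat, nor were Exo1, Pcna, Rnaseh2c, Dclre1c and Sfr1 with valemetostat. No list was tested as a set, so whether any change is particular to a list was not tested.

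**Figure D5:**
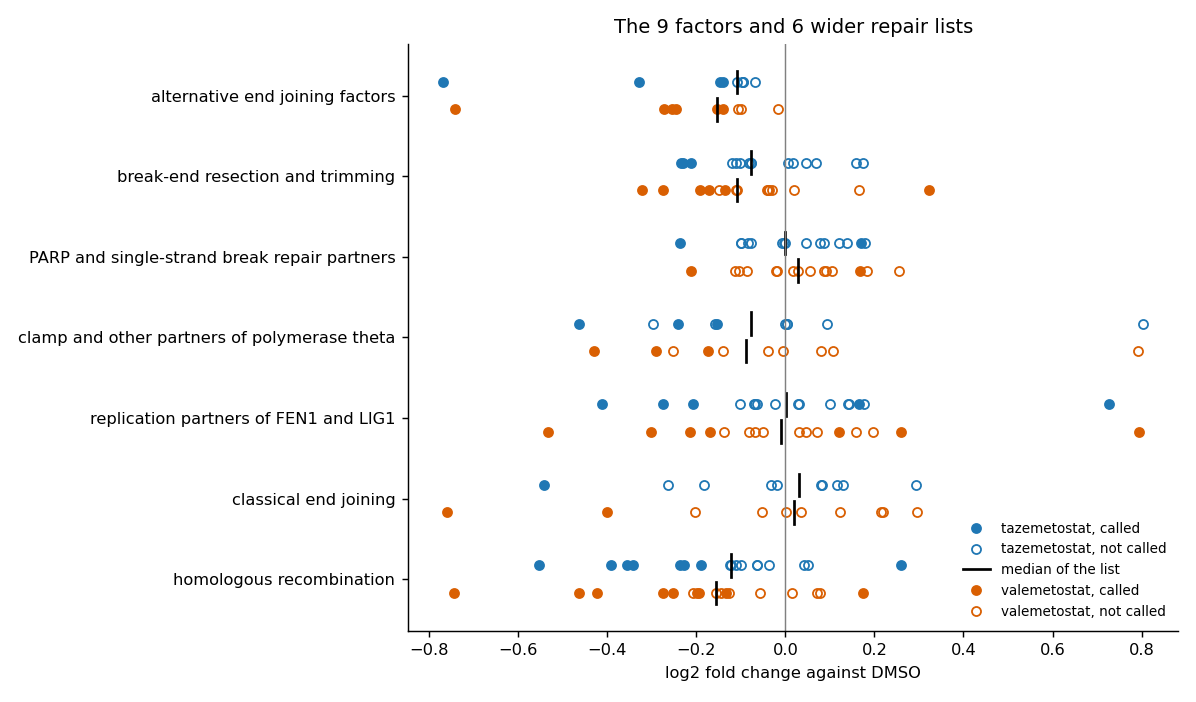
Log2 fold change against DMSO of each tested gene in the 9 alternative end joining factors and in 6 further repair lists, with filled circles for genes past the adjusted p threshold, open circles for the rest and a black bar at the median of each list. All 9 factors lie below 0 with both inhibitors, and the other lists have genes on both sides of 0.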

How the data were processed

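The deposited table held raw counts per gene and, beside them, log2(TPM + 1) values, made by the authors from libraries of poly(A) RNA sequenced as paired 150 nt reads, per the labels' protocols. Genome build mm9 was used, per the submitters' processing notes. Aligner, counter, annotation and use of strand were not given in the sources used here. Counts for 12580 genes that passed edgeR's filterByExpr (minimum count 10, minimum total 15) were fitted in 1 model over all 9 libraries with TMM factors and edgeR 4.0.16's quasi-likelihood test in R 4.3.3, with Benjamini-Hochberg adjustment over all tested genes and a threshold of 0.05. The fit was also run on simulated counts, drawn without any relation to transcript length, so that run does not bear on the length relation seen here. Alternatives were DESeq2 1.42.0, median-ratio factors, library totals, no filter, a filter of 1 CPM in 3 libraries, limma 3.58.1 (limma-trend) on the deposited log2 values, a replicate block, the compared groups alone, each library left out, and a length and GC offset. The offset came from splines with 5 degrees of freedom, fitted in each library to genes with 3 or more log2 CPM, with lengths from GENCODE M21 (GRCm38), which lists 42117 of the identifiers and also gave the gene overlaps. Lists were described by counts and medians. The genes named beside the 9 factors were, per list and comparison with DMSO, the called genes of smallest adjusted p (at most 3 per direction), the knocked-out gene and drug targets, and the 5 genes most correlated with Polq. The members and lists were chosen with earlier results of these data known. Promoter sequences of Rbbp8 and Rad50 were not used here.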

Additional observations from a re-analysis of the deposited data

How the results depend on the processing

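Polq and Xrcc1 were called lower with both inhibitors in all 17 alternatives, with Polq from -0.85 to -0.64 and from -0.79 to -0.58 on the log2 scale. Rad50 with valemetostat and Parp1 with tazemetostat also kept their calls. Leaving out each library gave 3 to 4 of the 9 genes called with tazemetostat and 4 to 6 with valemetostat. Leaving out DMSO 2 and valemetostat 2 together, chosen after seeing the data, gave 3 with valemetostat. On the TPM values 7 were called with tazemetostat. Over all genes 4794 were called with tazemetostat (2508 higher, 2286 lower), against 3123 on the TPM values (1177 higher, 1946 lower), and 3926 to 4676 with each library left out (3361 without DMSO 2 and tazemetostat 3). With valemetostat 4927 were called, 4072 to 4817 with each library left out, and 3283 without DMSO 2 and valemetostat 2. Between the compounds 40 were called, against 75 with DESeq2, 93 with no filter, 1 on the TPM values, 80 with the offset, 9 to 73 with each library left out and 12 with valemetostat 2 and tazemetostat 3 left out. Same-numbered libraries did not pair (correlations of deviations -0.241 to 0.197), and with the replicate block 4 and 5 of the 9 genes were called against DMSO, 0 between the compounds, and 4527, 4713 and 32 of all genes. Differences between the compounds that changed sign, none called, were Parp1 at 0.00363 with library totals and 0.00100 without tazemetostat 1, Polq at -0.0622 on the TPM values, -0.0776 without tazemetostat 3 and -0.0609 without valemetostat 2 and tazemetostat 3, and Parp2 at -0.000373 on the TPM values, -0.0105 with block and offset, -0.0103 with the offset, -0.0104 without tazemetostat 1 and -0.0183 without valemetostat 1. With libraries left out these differences ran from -0.0776 to 0.109 for Polq, -0.0159 to 0.00100 for Parp1 and -0.0183 to 0.0165 for Parp2. Fen1 with valemetostat ran from -0.0908 to 0.0103, with 0.0103 without DMSO 1, 0.00999 without DMSO 3 and 0.0041 without valemetostat 1. Mus81 on the TPM values was at -0.369 with tazemetostat and -0.407 with valemetostat, and Pcna with valemetostat at -0.0165 with the offset and -0.0164 with block and offset. The cause was not tested. Intervals of the compound difference, up to 0.19 in Polq, set what 3 libraries a group can show.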
